A study of Mus musculus with 10 samples.

Results

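Deptor and the genes of the mTOR complexes were followed in subcutaneous fat of mice that differ at an obesity locus. The set holds 10 genes, taken by name from a list of Deptor, the subunits of mTOR complex 1 and 2 (mTORC1 and mTORC2) and an assembly factor. All 10 were measured, among 19659 genes in all, and each was read by 1 probe set, a group of array probes for 1 transcript. The samples came from 10 untreated, chow-fed female F2 mice aged 14 weeks, 1 array per mouse, and the tissue was the inguinal-femoral white fat depot. The FF group held 5 mice homozygous for the Fat-line allele at Fob3a, and the VV group held 5 mice homozygous for the allele of the congenic V line, which the labels also call the lean-line allele. The V line descends from 1 recombinant founder whose offspring were repeatedly backcrossed to the Fat line, so FF and VV mice differ by an inherited stretch of chromosome 15, and the effects of the genes within that stretch cannot be told apart. Each mouse has its own animal number in the labels.

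The mTOR kinase works in 2 complexes. mTORC1 holds the kinase with Raptor and promotes protein and lipid synthesis and fat cell formation when nutrients and insulin are present, while mTORC2 holds it with Rictor and phosphorylates Akt. DEPTOR binds the kinase and inhibits its activity, and in adipocytes it is known to favour differentiation. The comparison of FF with VV asks which of these genes differ with the genotype at Fob3a.

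Values are deposited log2 intensities, so a difference of 1 unit is a 2-fold difference, and differences are FF minus VV. A gene is said to have risen or fallen where limma's adjusted p over all 19659 genes was below 0.05. Since probe sets differ in brightness, no gene's level is compared with another gene's.

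The arrays were those of fat. White adipocyte markers were bright in every mouse: the mean log2 intensity over the 8 listed markers was 13.18 to 13.29 in FF and 13.16 to 13.27 in VV, and none of the 8 rose or fell in limma, with an unadjusted p under 0.05 for 4 of them. Markers of other cells differed between mice. The mean over 7 measured liver markers was 12.07 in VV replicate 1, 8.80 in VV replicate 2 and at most 7.79 in the others, and the mean over 8 skeletal muscle markers was 9.45 in FF replicate 1 against at most 7.91 elsewhere. Markers of 2 cell types separated the groups. The brown adipocyte markers lay at 8.93 to 10.13 in FF and 6.91 to 7.82 in VV, with differences from 0.17 for Dio2 to 3.96 for Ucp1 and 5 of 8 past the threshold. The 7 measured leukocyte markers lay at 9.56 to 9.92 in FF and 10.03 to 10.42 in VV. Only Ptprc, which encodes CD45, was past the threshold, and 6 had an unadjusted p under 0.05 with the lower level in FF. In whole tissue, a smaller number of cells of a type and less RNA per cell cannot be told apart, and the part of these cells in the results below was not tested.

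Deptor was the only member that rose in FF fat. Its log2 intensity was 10.84, 10.97, 10.80, 10.89 and 10.91 in FF replicates 1 to 5, and 10.43, 10.40, 10.21, 10.25 and 10.39 in VV replicates 1 to 5. The lowest FF mouse, replicate 3, lay 0.36 above the highest VV mouse, replicate 1, which is the mouse with the brightest liver markers. The FF mean was 10.88 ± 0.07 and the VV mean 10.34 ± 0.10 (SD, n = 5), a difference of 0.55 ± 0.06 (SE) or 1.46-fold. The adjusted p in limma was 0.00553, and permuting the mice between groups in all 252 ways gave a two-sided exact p of 0.00794, the smallest possible. Without FF replicate 1, VV replicate 1 and VV replicate 2 the difference was 0.61, but the adjusted p in limma, 0.0529, missed the threshold, and the 7 remaining mice allow no exact permutation p below 0.0571. That fit was added after the marker levels were seen.

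**Figure D1:**
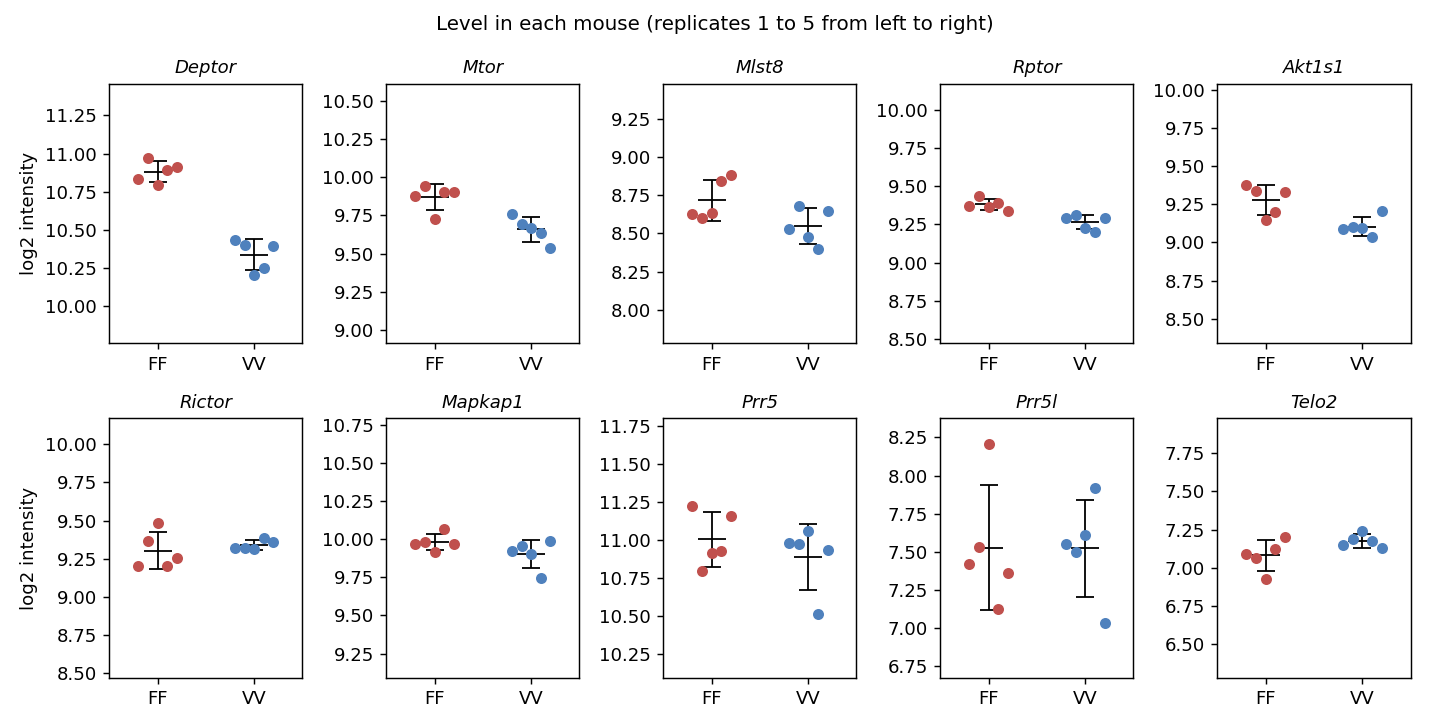
Log2 intensity of each gene in each mouse, with FF in red and VV in blue, replicates 1 to 5 from left to right within a group; black bars give the mean and SD (n = 5), and every panel spans the same range in log2 units. Deptor separates the groups by 0.36 between the nearest mice, Rptor by 0.03, and the other 8 genes overlap.

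Over all genes, 0.753% passed the threshold (148 of 19659) and 0.621% rose, so 1 of 10 members past it rests on Deptor alone. That total shifted with the mice in the fit: leaving out FF replicates 1 to 5 in turn gave 17, 12, 379, 59 and 21 genes, and leaving out VV replicates 1 to 5 in turn gave 163, 7, 74, 18 and 17. Deptor was past it in each of these fits.

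The kinase and the shared subunit had smaller differences. Mtor, which encodes the kinase itself, was at 9.88, 9.94, 9.73, 9.90 and 9.90 in FF replicates 1 to 5 and at 9.76, 9.70, 9.67, 9.64 and 9.54 in VV replicates 1 to 5. FF replicate 3 lay just below VV replicate 1, and the other 4 FF mice lay above every VV mouse. The difference was 0.21 ± 0.06 (SE), a 1.16-fold level with a 95% interval from 1.06 to 1.26, and its adjusted p in limma was 0.0912. Without FF replicate 3 the difference was 0.25 with an adjusted p of 0.0415, and after centring each array on its median it was 0.25 with an adjusted p of 0.0419, so in these 2 fits Mtor passed the threshold as well. Mlst8, which encodes a small subunit bound to the kinase in each complex, was at 8.63, 8.60, 8.63, 8.84 and 8.88 in FF replicates 1 to 5 and at 8.53, 8.68, 8.48, 8.40 and 8.65 in VV replicates 1 to 5. The groups overlapped, since VV replicates 2 and 5 lay above the lowest FF mouse, and the difference of 0.17 ± 0.08 (SE) had an adjusted p of 0.289.

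Deptor and Mtor differed unequally between the groups. Subtracting the Mtor value from the Deptor value on the same array, in which a shift of the whole array cancels, gave 0.96 to 1.07 in FF mice and 0.54 to 0.86 in VV mice. The groups did not overlap, and the difference of 0.33 had a two-sided exact permutation p of 0.00794, the smallest possible for 5 mice against 5. The same subtraction left the groups apart for 7 of the 9 other members, all but Prr5 and Prr5l, and for 85.4% of all other genes. Deptor alone already separated the groups by 0.36, and groups that do not overlap always give this smallest p. Neither that count nor the p for Mtor therefore says anything particular about the members.

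The subunits found only in mTORC1 lay slightly higher in FF, short of the threshold. Rptor, which encodes Raptor, the scaffold that brings substrates to the kinase, was at 9.37, 9.43, 9.37, 9.39 and 9.34 in FF replicates 1 to 5 and at 9.29, 9.31, 9.23, 9.20 and 9.29 in VV replicates 1 to 5. Every FF mouse lay above every VV mouse, but the gap between the nearest mice was only 0.03. The difference was 0.12 ± 0.04 (SE), or 1.08-fold, with an adjusted p in limma of 0.174. Rptor varied little: 2.17% of all genes had a smaller SD within groups. Akt1s1, which encodes PRAS40, an inhibitory subunit released from Raptor when Akt phosphorylates it, was at 9.38, 9.34, 9.15, 9.20 and 9.33 in FF replicates 1 to 5 and at 9.09, 9.10, 9.09, 9.03 and 9.21 in VV replicates 1 to 5. VV replicate 5 reached above FF replicates 3 and 4, and the difference of 0.17 ± 0.06 (SE) had an adjusted p of 0.145.

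Groups that do not overlap were found for 2 of 10 members, Deptor and Rptor, both higher in FF, and for 4.70% of all genes, 3.36% with FF above. An unadjusted p under 0.05 was found for 5 members, Deptor, Mtor, Akt1s1, Rptor and Mlst8, all higher in FF. Over all genes 16.4% had one, 10.2% with the higher level in FF. The median difference was 0.11 over the 10 members and 0.11 without Deptor, against 0.000811 over all genes. Without genes below the median level, a filter that also drops Prr5l and Telo2, it was 0.0216 over the remaining 9830 genes. These counts describe the list; the members were chosen with earlier results of these data known.

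**Figure D2:**
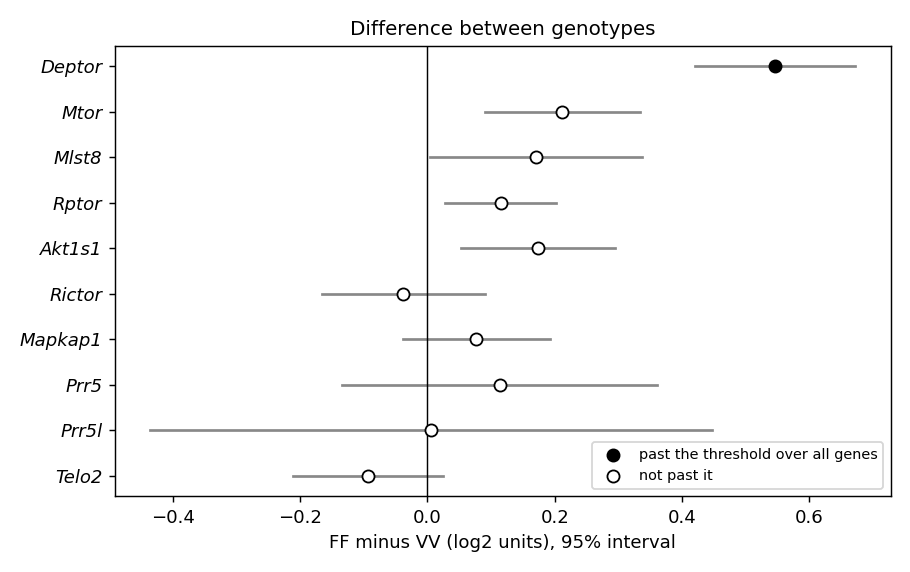
Difference between FF and VV in log2 units for each gene, with its 95% interval from the fit over all genes; the filled point is past an adjusted p of 0.05. Deptor stands at 0.55, Mtor, Mlst8, Akt1s1 and Rptor between 0.12 and 0.21, and the intervals of Rictor, Mapkap1, Prr5, Prr5l and Telo2 include 0.

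The subunits found only in mTORC2 showed no difference past the threshold in limma, and none of the 4 had an unadjusted p under 0.05. Rictor, the scaffold that defines the complex, ranged from 9.20 to 9.48 in FF and from 9.31 to 9.39 in VV, a difference of -0.04 with a 95% interval from -0.17 to 0.09 (adjusted p = 0.800 in limma). The VV mice lay close together, inside the range of the FF mice. The difference was -0.01 without FF replicate 1 or FF replicate 4 and -0.08 without FF replicate 3; it was -0.00101 after centring arrays on their median and -0.06 after quantile normalisation. Mapkap1, which encodes mSIN1, the subunit that places Akt before the kinase, ranged from 9.92 to 10.06 in FF and from 9.75 to 9.99 in VV, a difference of 0.08 with an interval from -0.04 to 0.19, and of 0.04 without VV replicate 4. Prr5 and Prr5l encode Protor proteins, which bind Rictor. Prr5 ranged from 10.80 to 11.22 in FF and from 10.51 to 11.06 in VV, a difference of 0.11 with an interval from -0.13 to 0.36. It was 0.02 without VV replicate 4, the mouse at 10.51, 0.06 without FF replicate 1 and 0.08 without FF replicate 5. Prr5l ranged from 7.12 to 8.21 in FF and from 7.03 to 7.92 in VV, a difference of 0.01 with an interval from -0.44 to 0.45. It varied more than the other members, and 96.8% of all genes had a smaller SD within groups. With 1 mouse left out the difference ran from -0.16 without FF replicate 3 and -0.12 without VV replicate 5 to 0.105 without VV replicate 4 and 0.11 without FF replicate 4, so it has no settled sign. A difference as large as that of Deptor, 0.55, lies outside the intervals of all 4 mTORC2 genes. Whether the mTORC1 genes and the mTORC2 genes differ from each other in their response was not tested.

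Telo2 encodes a factor that, with Tti1 and Tti2 in the TTT complex, keeps newly made mTOR and related kinases stable. It was at 6.93 to 7.20 in FF and at 7.13 to 7.24 in VV, a difference of -0.09 with an interval from -0.21 to 0.02 (adjusted p = 0.430 in limma). It was -0.05 without FF replicate 3 or after quantile normalisation and -0.06 after centring arrays on their median. Without FF replicate 5 it was -0.12, with an interval from -0.24 to -0.008 and an adjusted p in limma of 0.290. The other assembly genes did not share its sign: all 6 that were measured, of 9 listed, had positive differences from 0.02 to 0.32, and none rose. A positive difference was found for 50.3% of all genes. The smallest p values among them were those of Ruvbl2, an ATPase of the R2TP chaperone (0.32, adjusted p = 0.0893), and Tti2 (0.17, adjusted p = 0.138).

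Of the members, 3 lie on chromosome 15, the chromosome of Fob3a: Rictor, Deptor and Prr5, in that order on assembly GRCm38.p6. Only Deptor rose. Of 745 measured genes of the chromosome, 0.805% passed the threshold in limma, close to the share over all genes. The interval that separates the FF and VV alleles is not given in the sources used here, and whether the alleles differ in sequence under a probe was not analysed here.

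The promoters of Mtor and Rptor are shown because these are the mTORC1 genes that lay nearest to Deptor over the 10 mice, with Rptor the other member whose groups did not overlap. Each sequence is the 250 bases before the RefSeq start on GRCm38.p6, the C57BL/6J reference and not the Fat or V line, and is written 5′ to 3′ on the + strand. Capitals mark motifs found on the printed strand or as the reverse complement on the other. The GC box, a site of Sp1, was searched as GGGCGG. The box of the factor NF-Y was searched as the letters that name it, CCAAT. The core of sites of ETS factors was searched as CCGGAAG.
Mtor, chr4:148448332-148448581: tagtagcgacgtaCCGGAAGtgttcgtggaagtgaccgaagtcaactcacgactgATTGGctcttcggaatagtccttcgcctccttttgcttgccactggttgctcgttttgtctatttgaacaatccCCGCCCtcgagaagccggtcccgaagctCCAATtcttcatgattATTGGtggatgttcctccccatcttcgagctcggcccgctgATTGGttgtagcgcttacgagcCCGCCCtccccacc
Rptor, chr11:119602655-119602904: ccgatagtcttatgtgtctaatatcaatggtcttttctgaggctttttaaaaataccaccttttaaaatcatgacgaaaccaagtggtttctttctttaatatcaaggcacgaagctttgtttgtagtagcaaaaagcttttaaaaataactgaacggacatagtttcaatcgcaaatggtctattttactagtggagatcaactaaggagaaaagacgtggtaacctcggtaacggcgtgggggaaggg
The Mtor window held 4 CCAAT boxes, 2 GC boxes and 1 ETS core, none overlapping another, while the Rptor window held none of these. Among 32851 promoter windows of the same length in the RefSeq table, 32.7% held a GC box, 33.8% a CCAAT box and 6.91% an ETS core. Of the 9 members with an entry, all but Deptor, 6 held a GC box, 5 a CCAAT box and 2 an ETS core (Mtor and Akt1s1), and none held the E-box CACGTG, found in 6.02% of all windows. GC content differed as well, 54.4% for Mtor and 37.6% for Rptor. These matches describe letters only.

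Variation among mice of the same group did not bind the members into 1 block. After subtracting each group's mean, 28 of 45 pairs of members had a positive Pearson correlation over the 10 mice, with a median of 0.17. Deptor varied most like Rptor (r = 0.80), then Mapkap1 (0.57), Mlst8 (0.47) and Mtor (0.45). Rictor and Prr5l varied with each other (0.73) and opposite to most of the others, down to -0.79 between Prr5l and Mapkap1 and -0.76 between Rictor and Telo2. These values rest on 5 mice per group that share the array normalisation, and are given as a description with no test.

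**Figure D3:**
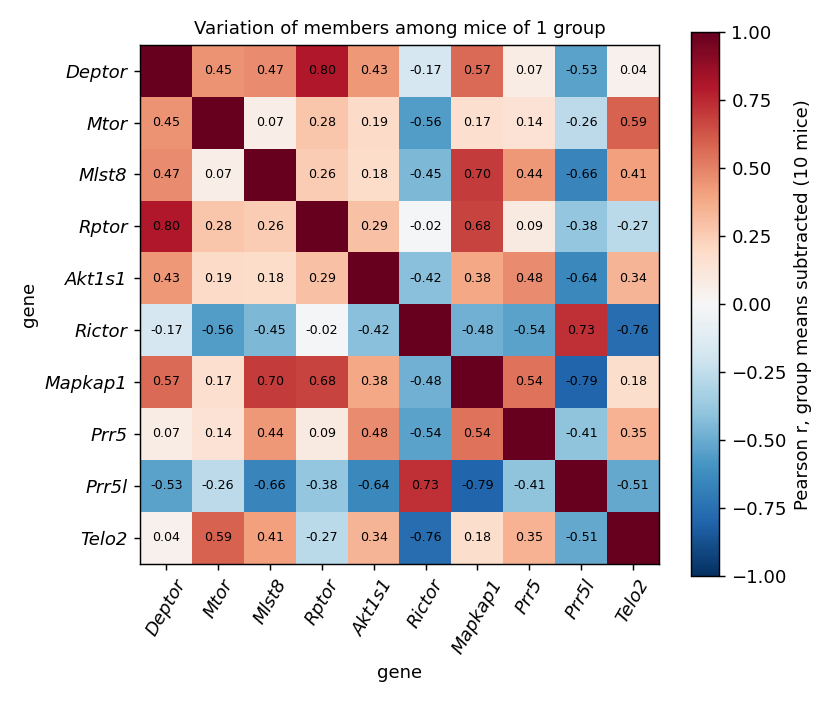
Pearson correlation between each pair of genes over 10 mice after each group's mean was subtracted, from blue at -1 through white at 0 to red at 1. Rptor is the gene nearest to Deptor at 0.80, and Rictor and Prr5l share a colour with each other and not with most of the rest.

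Genes with a pattern most like that of Deptor were sought in the whole table. Over the 10 mice with no group mean removed, where the gap between FF and VV weighs most, the 5 highest Pearson correlations were those of Mvb12b, an ESCRT subunit (0.967), Rwdd4a (0.965), Abca2, a lipid transporter (0.956), Sh2b1, an adaptor of insulin and leptin receptors (0.953), and Ddx27, an RNA helicase (0.950). Abca2, Sh2b1 and Ddx27 rose, by 0.45, 0.23 and 0.24 (adjusted p = 0.0120, 0.0352 and 0.0489 in limma). Rptor stood at rank 23, Mtor at 209 and Akt1s1 at 485 of the other genes. With the group means removed, the 5 nearest were Morrbid, a long noncoding RNA of leukocytes (0.956), Trmt1, a tRNA methyltransferase (0.930), Hoxaas2 (0.928), Ube2u (0.923) and Ifi214, an interferon-induced gene (0.916), with Rptor at rank 50. Hoxaas2, Ube2u and Ifi214 gave dim signals, with group means from 4.81 to 5.99 where array medians were 7.15 to 7.21. No gene was in both groups of 5. Each group was picked from 19658 correlations over only 10 mice, a choice that favours high values, and no correlation was tested.

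Genes around the complexes were counted in 5 further lists, with 73 of 82 listed genes measured. None passed the threshold in limma, 16 had an unadjusted p under 0.05 with the higher level in FF and 4 with the lower level. All genes gave 10.2% and 6.18% for these. Differences were positive for 54 of the 73 measured genes and for 50.3% of all genes, a share not counted among genes of like brightness. The list median differences were 0.09 for assembly factors, 0.06 for genes of DEPTOR turnover, 0.07 for regulators upstream of mTORC1, 0.09 for mTORC1 targets and -0.02 for mTORC2 targets.

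DEPTOR protein is removed after phosphorylation by mTOR and casein kinase 1, when the ubiquitin ligase SCF with its adaptor beta-TrCP binds it. None of the 8 genes of this route had an unadjusted p under 0.05. The smallest p values were those of Fbxw11, one of the beta-TrCP genes (0.08, interval -0.02 to 0.19), and Rbx1, the ligase's RING subunit (0.11, interval -0.04 to 0.26). The array measures RNA, so protein turnover was not observed.

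Upstream of mTORC1, 27 of 34 measured genes had a positive difference and 7 a negative one, and 6 and 1 had an unadjusted p under 0.05. Nprl3, a subunit of the GATOR1 complex that restrains mTORC1 when amino acids are low, had the smallest p (0.22 ± 0.05 SE, adjusted p = 0.0722). Sesn3, a sestrin that holds mTORC1 down, lay lower in FF (-0.33 ± 0.09 SE, adjusted p = 0.101).

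Among 13 measured mTORC1 targets, 9 differences were positive and 5 had an unadjusted p under 0.05 with the higher level in FF, against 1 with the lower. Rps6kb2, an S6 kinase, differed by 0.25 ± 0.05 (SE) with an adjusted p of 0.0547, and Ulk1, the autophagy kinase that mTORC1 inhibits, by 0.20 ± 0.05 (SE) with an adjusted p of 0.0742. Among 12 measured mTORC2 targets the signs were mixed, 5 positive and 7 negative. Of these, 3 had an unadjusted p under 0.05 with the higher level in FF and 2 with the lower. Values for both target lists are RNA levels, so the activity of neither complex was observed. The kinase C genes differed in sign. Prkce was higher in FF (0.32 ± 0.11 SE, adjusted p = 0.167 in limma). Prkcb, a protein kinase C abundant in leukocytes, was lower in FF (-0.52 ± 0.13 SE, adjusted p = 0.0875), and so was Prkcd (-0.25 ± 0.08 SE, adjusted p = 0.129). The leukocyte markers were lower in FF too, with all 7 differences negative, from -0.80 for Cd79b to -0.22 for Cd3e, and their part in the kinase C values was not tested.

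**Figure D4:**
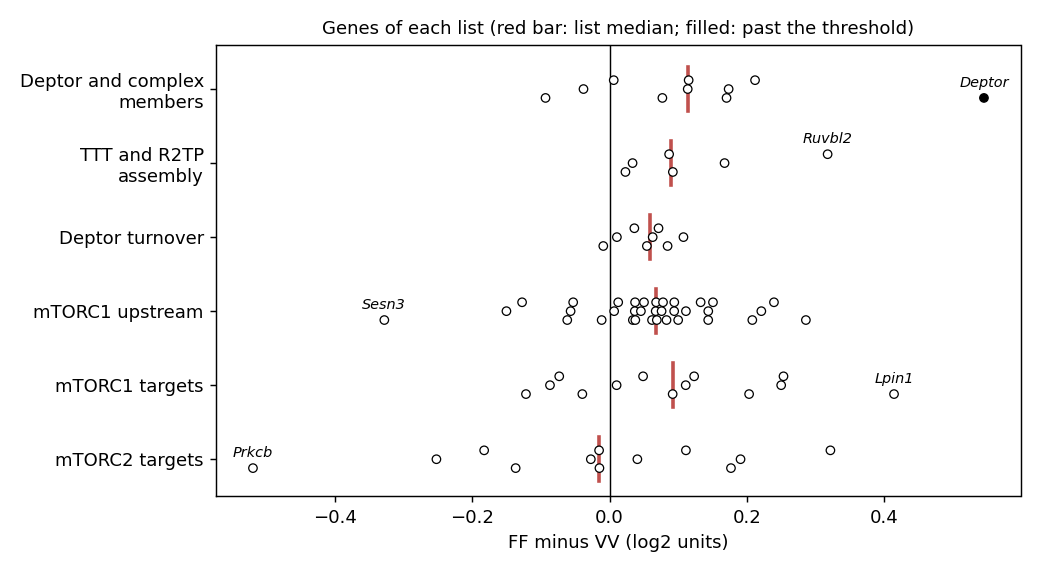
Difference between FF and VV in log2 units for each measured gene of 6 lists; each point is a gene, red bars are list medians, and the filled point, Deptor, is past the threshold over all genes. Deptor at 0.55 lies to the right of all other genes shown, and Prkcb at -0.52 farthest to the left.

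The difference of Deptor kept its size whichever mouse was left out, from 0.51 without VV replicate 3 to 0.57 without VV replicate 1, with adjusted p in limma from 0.00667 to 0.0274. Mtor ran from 0.18 without VV replicate 5 to 0.25 without FF replicate 3, and Rptor from 0.10 to 0.13 with adjusted p from 0.181 to 0.320.

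**Figure D5:**
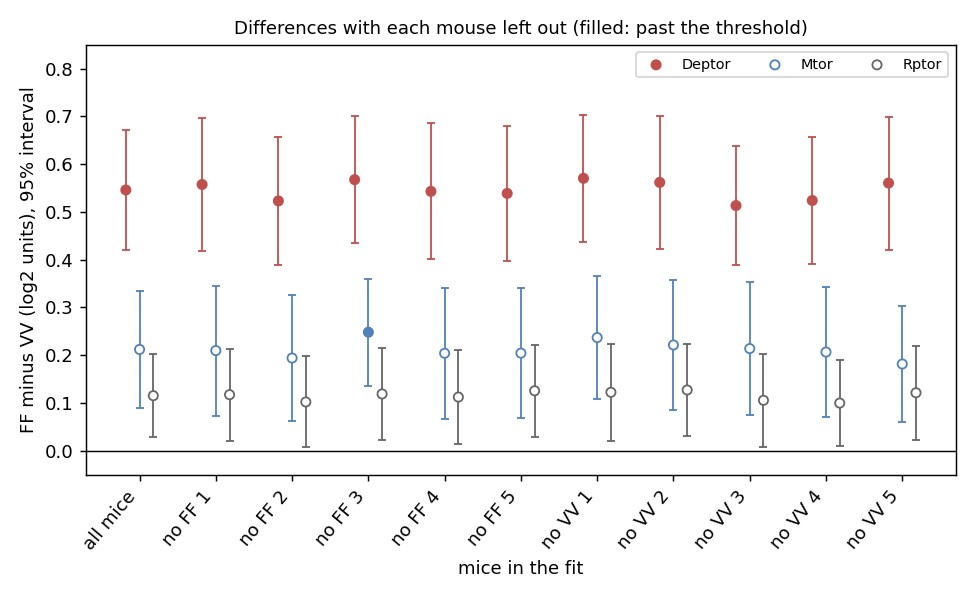
Differences between FF and VV in log2 units, with 95% intervals, for Deptor (red), Mtor (blue) and Rptor (grey) with all mice and with each mouse left out in turn; filled points are past an adjusted p of 0.05. Deptor is filled in all 11 fits, Mtor in the fit without FF replicate 3 and Rptor in none.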

How the data were processed

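RNA from 10 mice was hybridised to 10 one-colour arrays after random-primed amplification, per the labels' protocols. The deposited values are log2 intensities per probe set, made by the authors with RMA per the submitters' processing notes; its version is not given in the sources used here. Of 35557 probe sets 25689 had values on all arrays, and those naming 1 gene were kept, the brightest per gene (19659 genes; 20699 of 20777 probe sets matched GRCm38.p6). Values ran from 3.56 to 14.2; array medians were 7.15 to 7.17 in FF and 7.18 to 7.21 in VV. Precision is limited by the number of arrays. FF and VV were compared with limma 3.58.1 in R 4.3.3, two-sided, Benjamini-Hochberg over all genes. On simulated data for this comparison, 82 of 100 genes shifted by 0.5 and 97 of 100 shifted by 1 were recovered. Of 187 genes called there, 8 were false. The simulated noise was normal, independent between genes and without odd arrays, so these counts may not carry over to the real arrays. The members and lists were chosen with earlier results of these data known. Named are all members, the genes nearest to Deptor and the 2 of each list with the smallest p, with the markers of largest and smallest difference where a marker list separated the groups. Prkce is named in addition. Alternatives left out mice, blocked by replicate number, rescaled arrays, filtered dim genes, averaged or added probe sets, or changed the moderation. Figures used matplotlib 3.10.9.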

Additional observations from a re-analysis of the deposited data

Results flagged for a closer look

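Of 20 sets of 5 mice, the FF and VV mice for each of 10 genes, 2 held a mouse far from the other 4 by Dixon's ratio (critical value 0.71); chance flags about 1 in 20. Mtor in FF replicate 3 was 9.73 against 9.88 in the nearest FF mouse, with a ratio of 0.711, barely over the critical value. Prr5 in VV replicate 4 was 10.51 against 10.93 in the nearest VV mouse, with a ratio of 0.773.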

How the results depend on the processing

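Deptor kept its direction in all 19 alternatives. Blocking by replicate number, filtering dim genes, averaging or adding probe sets and changing the moderation left the difference of every fitted member as it was. For genes read by 1 probe set these settings change only the spread or the adjustment, so they could not change a direction. With 1 mouse left out Deptor differed by 0.51 to 0.57 and Deptor minus Mtor by 0.30 to 0.38. With the replicate number as a block, the difference of Deptor stayed at 0.55 with an adjusted p in limma of 0.0539. Deptor minus Mtor stayed at 0.33 with an exact sign-flip p of 0.0625. In that fit 5 genes and 0 members were past the threshold. Correlations of same-numbered mice ran from -0.26 to 0.10. These values gave no sign that the numbers pair the mice, but they cannot exclude a pairing. Without FF replicate 1, VV replicate 1 and VV replicate 2, chosen after seeing the data, Deptor differed by 0.61 and Deptor minus Mtor by 0.36, with 2 genes and 0 members past the threshold; fewer mice were fitted. Without FF replicate 1 and VV replicate 1, 28 genes passed. Genes past the threshold numbered 7 to 379 with 1 mouse left out, 95 after quantile normalisation, 601 after centring arrays on their median, and 355 without genes below the median; the cause was not tested. Members past it numbered 1 to 2 with 1 mouse left out and 2 after centring. Of 169 alternative values of the other 9 members, 165 kept direction and side of the threshold. Of the rest, 2 passed it (Mtor) and 2 changed sign (Prr5l). Prr5l ran from -0.16 without FF replicate 3 to 0.11 without FF replicate 4, and was -0.12 without VV replicate 5. The 169 include values from the settings that could not change a direction.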

Other observations

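In each group 1 mouse held the extreme value of its group for 7 of the 10 genes. FF replicate 3 was the lowest FF mouse for Deptor, Mtor, Akt1s1, Mapkap1 and Telo2 and the highest for Rictor and Prr5l. VV replicate 4 was the lowest VV mouse for Rptor, Mlst8, Akt1s1, Mapkap1 and Prr5 and, like FF replicate 3, the highest for Rictor and Prr5l. No other mouse held more than 5 extremes. How often each mouse was extreme over all genes was not counted, so these counts say nothing particular about the members. FF replicate 3 and VV replicate 4 had the lowest mean of the brown adipocyte markers in their group, 8.93 and 6.91 log2 units. They had the highest mean of the 5 measured adipose progenitor markers, 11.41 and 11.19, and of the 6 endothelial markers, 10.89 and 11.00. In FF the next lowest brown marker mean, that of replicate 1, was also 8.93. In VV the next highest progenitor mean, that of replicate 5, was 11.18. The next highest endothelial means were 10.82 in FF replicate 5 and 10.96 in VV replicate 2. The part of these cells in the values was not tested.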
